A study of Mus musculus with 8 samples.

Results

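The RNA described here was recovered with an antibody to ELAVL1 from unstimulated LbetaT2 cells. LbetaT2 is a mouse gonadotrope line immortalised by driving an oncogene in the pituitary from the promoter of Lhb, the luteinizing hormone beta gene. The 4 arrays are the vehicle group of a series of 8, and their cells received vehicle for 30 min after 16 h without serum. The members are the probes with a detection p below 0.05, that is, a signal above the array's background, on all 4 vehicle arrays. They number 9475 of the 25697 probes on the array (36.9%). Each sample was hybridised to 1 array of an Illumina bead chip. One cell line supplied all samples, and the labels do not say whether the replicates came from separate cultures, so the spread between them may be technical.

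ELAVL1 (HuR) binds RNA in most cell types. It prefers stretches rich in U or in A and U, mainly in the untranslated ends and introns of transcripts, and is known to protect bound messengers from decay and to influence their splicing and translation. In gonadotropes, the cells that make the gonadotropins luteinizing hormone and follicle-stimulating hormone, the releasing hormone GnRH acts through a single receptor, Gnrhr. In an RNA immunoprecipitation the protein is captured from a lysate and the RNA that comes with it is measured. Here each lysate had first met IgG-coated beads to remove what sticks unspecifically, and 6 washes followed the capture. RNA from before the capture and control captures were not analysed here. Each value is therefore an amount of RNA in the pull-down, in which binding, abundance in the cell and carry-over cannot be told apart. Signals were background-corrected, quantile normalized over the 4 vehicle arrays and put on the log2 scale. A probe's brightness reflects how well it captures its target as well as the amount of RNA, so a rank orders signals and not transcripts per cell.

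The number of probes above background was 10870 on vehicle replicate 1, 11636 on replicate 2, 11663 on replicate 3 and 10802 on replicate 4 (11243 ± 471, SD, n = 4). On 0 of the arrays lay 12617 probes (49.1%), and 1335, 1074 and 1196 lay above background on 1, 2 and 3 arrays. Probes were thus mostly above background everywhere or nowhere. The members with a gene symbol, 8903 probes, covered 6978 of the 16593 genes on the array (42.1%), and 572 members had no symbol. Just inside the threshold stood probes of Chst12, Dusp15, Fbxw8 and Gdi2, with a highest detection p of 0.0489. Just outside, at 0.0501, stood Accs, Ankrd54, Asgr2 and Ceacam10. The mean log2 signals of the inside probes ran from 4.71 to 5.42, and those of the outside probes from 4.76 to 5.17, so the 2 sides overlapped in level.

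Signals of the members spanned 4.65 to 13.59 on the log2 scale, with a median of 6.98 and quartiles of 5.81 and 8.63. Only 163 probes (1.72%) had a mean above 12, while 2796 (29.5%) lay below 6. The brightest 100 probes held 16.7% of the summed member signal, and 8 of them had no symbol or only a placeholder name. Most of the detected transcriptome was therefore dim, and a short bright end stood over it.

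Gnrhr, the receptor for GnRH, was the brightest probe on every vehicle array. Its raw signal was 13815 on replicate 1, 13864 on replicate 2, 13198 on replicate 3 and 8423 on replicate 4. After quantile normalization, which sets the brightest probe of each array to the same value, it stood at 13.59 on all 4 arrays. The lower raw value on replicate 4 went with a dimmer array, whose median raw signal was 33.4 against 37.3 to 41.7 on the others. Behind it came Actb, cytoplasmic beta actin, with 13.33, 13.26, 13.38 and 13.47 on replicates 1 to 4 (mean 13.36 ± 0.09, SD, n = 4), and Rab11b, a GTPase of recycling endosomes, with 13.38, 13.39, 13.25 and 13.39. Tubb5, a beta tubulin, stood at 13.21, 13.35, 13.39 and 13.38. These 3 lay within each other's spread, so their order is not resolved.

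Of the 25 brightest named genes 6 encode factors of RNA processing. They are Srsf2 (13.24 ± 0.09), Srsf1 (13.07 ± 0.16) and Srsf9 (13.17, 13.16, 12.91 and 12.76), which are serine and arginine-rich splicing factors, Hnrnpab (13.22 ± 0.08), a nuclear ribonucleoprotein, Pabpn1 (13.08 ± 0.14), which binds the nascent poly(A) tail, and Alyref (13.07 ± 0.17), an mRNA export adaptor. Chromatin proteins were Morf4l2 (13.33 ± 0.21), Hmgn2 (13.13 ± 0.09) and H3f3b (13.04 ± 0.09), which encodes a replacement histone. Besides Actb and Tubb5, the cytoskeleton was represented by Septin2 (13.16 ± 0.13), a filament-forming GTPase, and Dpysl2 (13.05 ± 0.14), a microtubule-associated protein.

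Membrane and secretory-route proteins of this set were Hacd3 (13.30 ± 0.09), an acyl-CoA dehydratase of the endoplasmic reticulum, Gpc1 (13.12 ± 0.14), a glypican, Tmx4 (13.05 ± 0.08), a thioredoxin-related transmembrane protein, Cd81 (13.02 ± 0.11), a tetraspanin, and Tram1 (12.98 ± 0.11), which helps chains across the membrane of the reticulum. Eif4a1 (13.21 ± 0.08), the RNA helicase of translation initiation, Psmb2 (13.09 ± 0.26), a proteasome subunit, and Ppm1b (13.08 ± 0.19), a protein phosphatase, were also among them. Hmgcs1, the synthase that feeds the sterol pathway, stood at 13.43, 13.47 and 13.47 on replicates 1 to 3 and at 12.46 on replicate 4. Its mean of 13.21 ± 0.50 thus rested on 3 arrays and carried the widest spread of the 25. The remaining gene, Isl1, a LIM homeodomain transcription factor of the gonadotrope lineage, was among the steadiest, with 13.12, 13.25, 13.26 and 13.20.

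**Figure D1:**
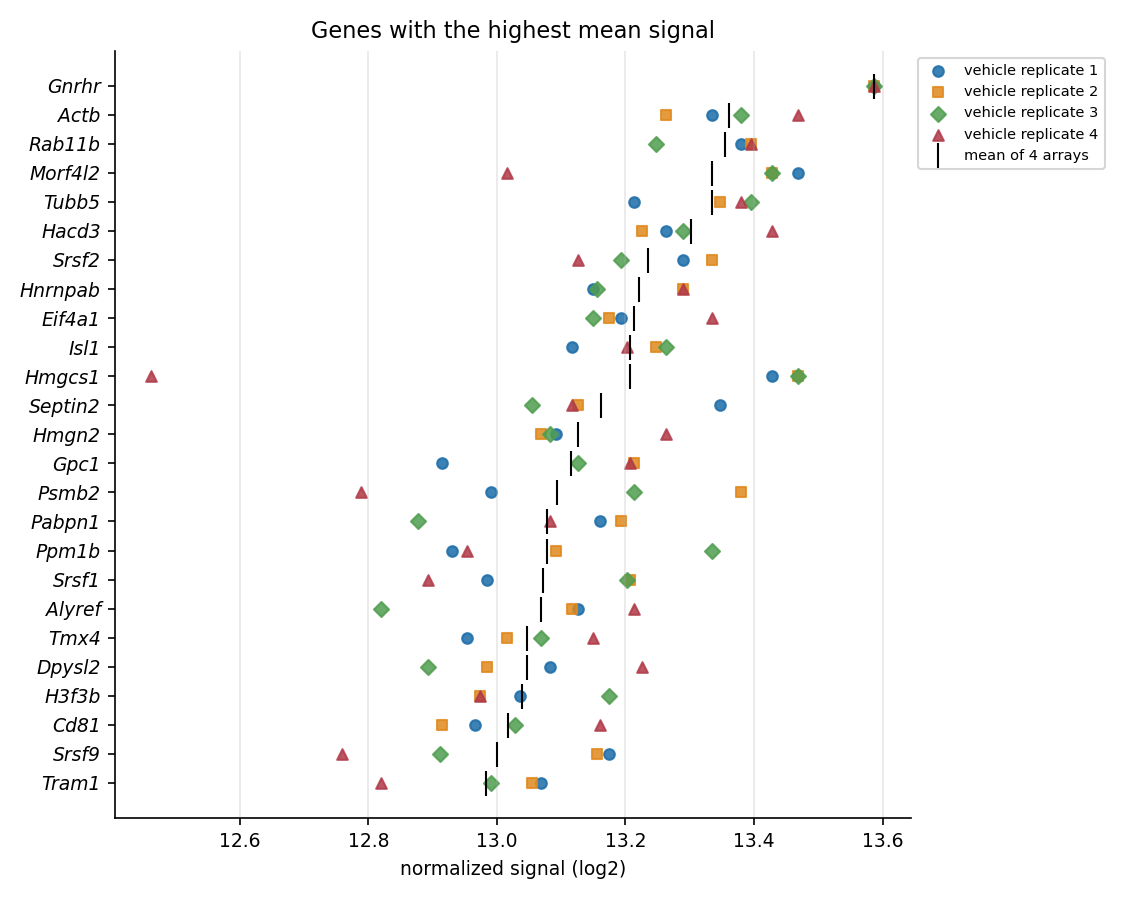
Normalized log2 signal of the 25 named genes with the highest mean, 1 point per vehicle array and a black tick for the mean of the 4 arrays. Gnrhr stood at 13.59 on every array, and Hmgcs1 on replicate 4, at 12.46, lay apart from its other arrays.

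The gonadotrope label was checked against a list of lineage and function genes. Of 29 list genes on the array 15 (51.7%) were above background on all 4 arrays, beside 42.1% of all genes. Those 15 had a median percentile of 82.3 ± 2.59 (SD of the list's median over the 4 arrays), on a scale where 100 is the brightest member probe and all detected genes had a median of 49.8. They passed through being bright, however, and over all 29 genes among all probes on the array the median percentile was 53.5, beside 49.3 for all genes. The list was therefore split, with a bright part and an undetected part.

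Its bright part held the receptor, the common hormone subunit and several transcription factors. Gata2, a zinc finger factor of the gonadotrope and thyrotrope lineages, stood at 12.50, 12.50, 12.57 and 12.50 (12.52 ± 0.03). Cga, the alpha subunit shared by the glycoprotein hormones, stood at 11.49, 11.42, 11.46 and 11.79 (11.54 ± 0.17). Inhbb, which encodes the beta B subunit of inhibins and activins, stood at 11.09, 11.02, 11.17 and 11.05. In all these the 4 arrays lay close together. Tgfbr3, betaglycan, a co-receptor for inhibin, followed with 10.36, 10.09, 10.36 and 10.34, and Smad3, a transducer of activin signals, with 9.01, 9.20, 9.47 and 9.83.

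Other transcription factors of the list were dim. Pitx1 stood at 5.50, 5.58, 5.79 and 6.18 (5.76 ± 0.31), Lhx3 at 4.82, 5.06, 5.29 and 5.71 (5.22 ± 0.38), and Foxl2, a forkhead factor needed for Fshb transcription, at 5.86, 4.90, 4.68 and 4.76 (5.05 ± 0.55). Lhx4, a relative of Lhx3, had 6.79, 6.57, 6.67 and 8.48, with replicate 4 above the rest. The only probe of Lhb and the only probe of Fshb, genes of the hormone-specific beta chains, were above background on 0 of the 4 arrays. Both probes of Nr5a1, the nuclear receptor SF-1, were so on 1 array. The label of a gonadotrope line thus had the receptor, Isl1, Gata2 and Cga at the bright end. The probes of 2 of its defining hormone genes had no signal above background in the pull-down. Whether these probes capture their transcripts was not tested.

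Promoter sequences of 3 bright lineage genes are shown because their letters differ widely although their pull-down signals all lay in the brightest 10%. Each line gives the 120 bases before the start site from RefSeq on GRCm38.p6, 5′ to 3′ on the gene's strand, with CG dinucleotides and the TATA box letters TATAAA in capitals. Gnrhr lies at chr5:86197902-86198021 on the minus strand, Cga at chr4:34893659-34893778 on the plus strand and Isl1 at chr13:116309689-116309808 on the minus strand.
Gnrhr: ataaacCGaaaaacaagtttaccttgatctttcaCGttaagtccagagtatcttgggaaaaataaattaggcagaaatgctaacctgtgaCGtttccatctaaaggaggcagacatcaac
Cga: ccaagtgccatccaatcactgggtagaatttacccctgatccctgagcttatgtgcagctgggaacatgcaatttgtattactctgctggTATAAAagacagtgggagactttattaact
Isl1: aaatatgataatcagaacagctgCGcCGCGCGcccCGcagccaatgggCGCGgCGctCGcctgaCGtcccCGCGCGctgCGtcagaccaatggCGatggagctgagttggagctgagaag
The 250 bases before the start of Gnrhr held 7 CG and were 43.2% G or C, those of Cga held 0 CG, and those of Isl1 held 33 CG at 71.2%. Only Cga of the 3 had TATAAA starting 20 to 40 bases before its start site. The 250 bases before the start of Cga also held AGGTCA, the core letters of many nuclear receptor sites, and TGANGTCA, a cyclic AMP response element form, when both strands were searched. A match to letters is a description and not evidence of a bound factor.

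Across genes, 5754 of the 6978 detected genes (82.5%) and 13336 of the 16593 genes on the array (80.4%) had a promoter in the RefSeq table. Detected genes had a median of 17 CG in the 250 bases and 60.8% G or C, beside 11 CG and 56.4% for all genes on the array. TATAAA in the window above stood before 54 detected genes (0.938%), beside 364 of all genes (2.73%). AGGTCA occurred in 9.58% and TGANGTCA in 5.60% of detected genes' promoters, beside 11.97% and 6.50% of all. Cga and Gnrhr, with few CG, were thus unlike most detected genes in this respect. Along the order of signals in bands of 10 percentile points, the median CG count was 19 in the brightest band and between 15 and 18 in the next 8. In the dimmest band only 79.3% of genes had a promoter, so no value is given for it. The median length of a gene in the annotation was 23.2 kb for detected genes and 18.0 kb for all.

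Markers of other pituitary lineages were nearly absent from the members. Of 9 genes on the array 2 were above background on all arrays, Neurod1, a basic helix-loop-helix factor used as a corticotrope marker (5.84, 6.56, 6.42 and 6.86), and Drd2, the dopamine receptor of lactotropes (5.71, 5.79, 6.23 and 6.12). The hormone genes Prl, Gh, Tshb and Pomc lay above background on 0 arrays. None of 3 folliculostellate and none of 5 blood markers was detected on all arrays. Of 11 stromal and endothelial markers 2 were detected, and they were not dim. Pecam1, an adhesion molecule of endothelial cells, had 1 probe at 9.23, 8.99, 9.23 and 9.57 and another at 9.92, 8.97, 8.95 and 9.02. Cdh5, vascular endothelial cadherin, had 9.32, 8.39, 8.64 and 9.44. The endothelial receptors Kdr and Tek were above background on 3 and 1 arrays, and the collagens Col1a1, Col1a2 and Col3a1 on 0. Where the Pecam1 and Cdh5 signals came from was not tested.

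Genes of the secretory granule, in which peptide hormones are stored, were represented by 18 of 27 genes (66.7%), with a median percentile of 66.3 ± 1.48. The brightest were Syt4, a synaptotagmin (12.85, 12.08, 12.47 and 12.66), Rab27a, a GTPase of granule docking (11.69, 11.58, 11.84 and 11.94), and Rab3a, a GTPase of regulated exocytosis (10.00, 10.40, 10.00 and 10.37). The dimmest were Scg3, a granin (5.86 ± 0.27), Ica1 (5.76 ± 0.28) and Vgf, a precursor of secreted peptides (4.93 ± 0.33). The list thus held both bright and dim genes. Scg2, secretogranin II, stood at 10.73, 9.87, 9.87 and 9.80. Snap25, a SNARE protein of vesicle fusion, and Syt1, a synaptotagmin, were above background on 0 arrays.

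Transcripts that the literature names as ELAVL1 targets were detected more often than the array as a whole, 31 of 43 genes (72.1%), with a median percentile of 80.9 ± 0.27. The detected share was above that of secretory granule genes (66.7%) and below those of chaperones (75%) and proteasome subunits (86.0%), so it is not particular to targets. Over all 43 genes and all probes the median percentile was 75.5, beside 49.3 for all genes on the array. By that measure chaperones lay at 79.7, proteasome subunits at 79.2 and secretory granule genes at 74.6. Of the 31 genes 11 lay in the brightest 10% and 2 in the dimmest 10%. Actb led this list too, followed by Ptma, prothymosin alpha (12.75, 12.67, 12.77 and 12.99), and Vegfa, an angiogenic growth factor (12.49, 12.57, 12.58 and 13.17). Elavl1 itself, whose protein is known to bind its own messenger, stood at 12.28, 12.50, 12.44 and 12.28 and ranked 100 of the 9475 probes. These 4 lay far above the median member on each array.

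The targets reached down to the floor as well. Igf1r, the receptor of insulin-like growth factor 1, stood at 6.94, 5.88, 5.62 and 5.96, Ccne1, cyclin E1, at 5.05 ± 0.16, and Mmp9, a secreted metalloproteinase, at 4.68 ± 0.06, 1 of the 10 dimmest named genes. The inflammatory targets Tnf, Ptgs2, Il6, Nos2 and Csf2 were above background on 0 arrays. Myc was detected on at most 2 arrays and Ccnd1, cyclin D1, on at most 3. Being a published target thus went with signals from the top of the range to below background in this line.

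Proteins that bind AU-rich elements or belong to the ELAVL family were encoded by 21 detected genes of 30 (70.0%), with a median percentile of 79.9 ± 3.23. Pcbp2, a poly(C)-binding protein (12.80, 12.72, 12.61 and 12.67), and G3bp1, a stress granule protein (12.45, 12.43, 12.50 and 12.72), stood at the top of the list with Elavl1, and Zfp36l1, a decay factor of the tristetraprolin family, was the dimmest (5.03 ± 0.07). Elavl2, a neuronal relative, was bright on both probes (11.80, 11.80, 11.79 and 11.50, and 11.05, 11.29, 11.31 and 10.72). Elavl4 was above background on 0 arrays and Elavl3 on 3. The members of the family thus differed widely in signal.

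The hnRNP and SR splicing proteins were detected in 32 of 38 genes (84.2%), with a median percentile of 77.3 ± 4.88 and 8 genes in the brightest 10%. That SD was the largest among lists with at least 3 detected genes. The median percentile was 83.0 on replicate 1 and 73.4, 73.7 and 72.7 on replicates 2 to 4, and its median deviation from the mean of the arrays was 0.29 on replicate 1 and -0.23 on replicate 4. At its lower end stood Pspc1, a paraspeckle protein (6.65 ± 0.33), Rbm39 (5.48 ± 0.30) and Hnrnpa3 (5.25 ± 0.34). The list therefore spread over nearly the whole range while most of its genes lay above the median.

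Immediate early genes, which a stimulus induces without new protein synthesis, were detected in 29 of 49 genes (59.2%) in these unstimulated cells. The detected ones had a median percentile of 49.1 ± 3.03, beside 49.8 for all detected genes. Over all 49 genes among all probes on the array it was 64.8, beside 49.3 for all genes. Btg1, an antiproliferative gene, was the brightest (12.61, 12.52, 12.40 and 12.62), followed by Cebpb, a bZIP transcription factor (12.15, 12.44, 11.80 and 12.43), and Dusp1, a MAP kinase phosphatase (10.52, 10.73, 10.30 and 10.33). Egr1, the zinc finger factor that drives Lhb, stood at 9.14, 9.37, 9.78 and 8.90, and Fos at 8.71, 9.28, 9.22 and 7.92. Both were well above the median member without GnRH, and both were lowest on replicate 4. The dimmest were Egr3 (4.89 ± 0.36), Klf2 (4.88 ± 0.13) and Klf4 (4.84 ± 0.08). Fosl1, Egr4, Atf3, Npas4, Nr4a1 and Nr4a3 were above background on 0 arrays.

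Components that carry the signal of Gnrhr were nearly all detected, 34 of 39 genes (87.2%), beside 42.1% of all genes. Proteasome subunits (86.0%) and sterol synthesis genes (90.5%) had like shares, so the share is not particular to this route. The detected components had a median percentile of 72.5 ± 3.53 and 10 genes in the brightest 10%. Over all 39 genes among all probes the median percentile was 75.7, beside 49.3 for all genes and 79.2 for proteasome subunits. After the receptor itself came Calm3, a calmodulin (12.77, 12.62, 12.64 and 12.76), and Prkar1a, a regulatory subunit of protein kinase A (12.43, 12.32, 12.53 and 12.36). Gnaq and Gna11, the G protein alpha subunits that couple the receptor to phospholipase C, stood at 10.55 ± 0.05 and 9.55 ± 0.11. The dimmest were Camk2g, a calmodulin-dependent kinase (5.83 ± 0.25), Prkca, a protein kinase C (5.73 ± 0.35), and Itpr3, an inositol trisphosphate receptor (5.47 ± 0.19). Signal in the pull-down thus came from most of the listed components with a probe, and ran from the brightest member to dim ones. The list held 50 genes, of which 39 were on the array, so the route was not covered in full.

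Sterol synthesis genes were the list with the largest share detected, 19 of 21 (90.5%), with a median percentile of 70.6 ± 3.18. After Hmgcs1 came Hsd17b7, a reductase of the pathway (11.99, 11.95, 12.03 and 11.76), and Stard4, a sterol carrier (10.78, 10.54, 10.72 and 11.16). The dimmest were Nsdhl (5.71 ± 0.86), Pmvk (5.47 ± 0.25) and Mvd (5.30 ± 0.33), which are further enzymes of the route. Nsdhl was highest on replicate 1 on all 4 of its probes.

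Glycolysis genes were detected in 13 of 17 (76.5%), with a median percentile of 81.8 ± 3.23. The list's median deviation was -0.53 on the log2 scale on replicate 1 against 0.23, 0.05 and 0.12 on replicates 2 to 4, although not every member was low there. Gapdh, a common reference gene, stood at 8.81, 9.90, 9.51 and 9.51 on 1 probe and at 7.72, 8.72, 8.31 and 8.26 on the other. Both probes were thus lowest on replicate 1. Eno2, the neuron-type enolase (10.99, 11.25, 11.29 and 11.87), and Hk2, a hexokinase (10.87, 10.38, 10.85 and 11.07), were the brightest of the list, and Hk2 was lowest on replicate 2.

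Cytosolic ribosomal proteins were detected in 52 of 63 genes (82.5%), with a median percentile of 62.9 ± 4.24 and only 4 genes in the brightest 10%. Rpl23 (11.93, 12.79, 12.74 and 13.35), Rps14 (12.10 ± 0.41) and Rpl27 (12.52, 11.87, 11.31 and 11.94) were the brightest, and Rpl7a, Rps6 and Rpl27a, at 5.89, 5.71 and 5.06, the dimmest. The list deviated by 0.33 on replicate 2 and by -0.25 on replicate 3. Mitochondrial ribosomal proteins were detected as often, 61 of 73 (83.6%), but lower, with a median percentile of 42.8 ± 3.21 and 0 genes in the brightest 10%. Oxidative phosphorylation subunits lay between the ribosomal lists by this measure, with 65 of 80 genes (81.2%) and 61.4 ± 2.45. Over all 63 cytosolic genes among all probes on the array the median percentile was 80.9, beside 49.3 for all genes. By that measure the list lay above literature ELAVL1 targets (75.5) and proteasome subunits (79.2). It lay below hnRNP and SR proteins (87.4) and sterol synthesis genes (85.6). Its place among the lists thus depended on the detection filter. Cytosolic ribosomal protein messengers, which are among the most abundant of most cells, did not lead the lists by either measure.

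Other housekeeping lists lay above the median of all detected genes. Cytoskeletal genes had 26 of 34 detected (76.5%) at a median percentile of 75.1 ± 1.5, chaperones 27 of 36 (75%) at 71.7 ± 2.24, cell cycle and replication genes 31 of 40 (77.5%) at 69.6 ± 3.41, translation factors 35 of 45 (77.8%) at 64.1 ± 4.70, and proteasome subunits 37 of 43 (86.0%) at 61.5 ± 2.09. Among chaperones Cct8, a subunit of the chaperonin (11.59, 11.75, 11.77 and 11.62), was bright, while Hspa5, the main chaperone of the endoplasmic reticulum, stood at 5.35, 6.06, 6.22 and 6.15. Among replication genes the brightest probes were of Mcm4, a subunit of the replicative helicase (12.55, 12.53, 12.75 and 12.69), and Cdk2, a cyclin-dependent kinase (12.38, 12.59, 12.76 and 12.60). Both genes also had dimmer member probes, and by the mean over a gene's probes Cenpa led, at percentile 96.6. Of the translation factors Eef2, the elongation factor of translocation, was among the dimmest (5.20 ± 0.34).

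**Figure D2:**
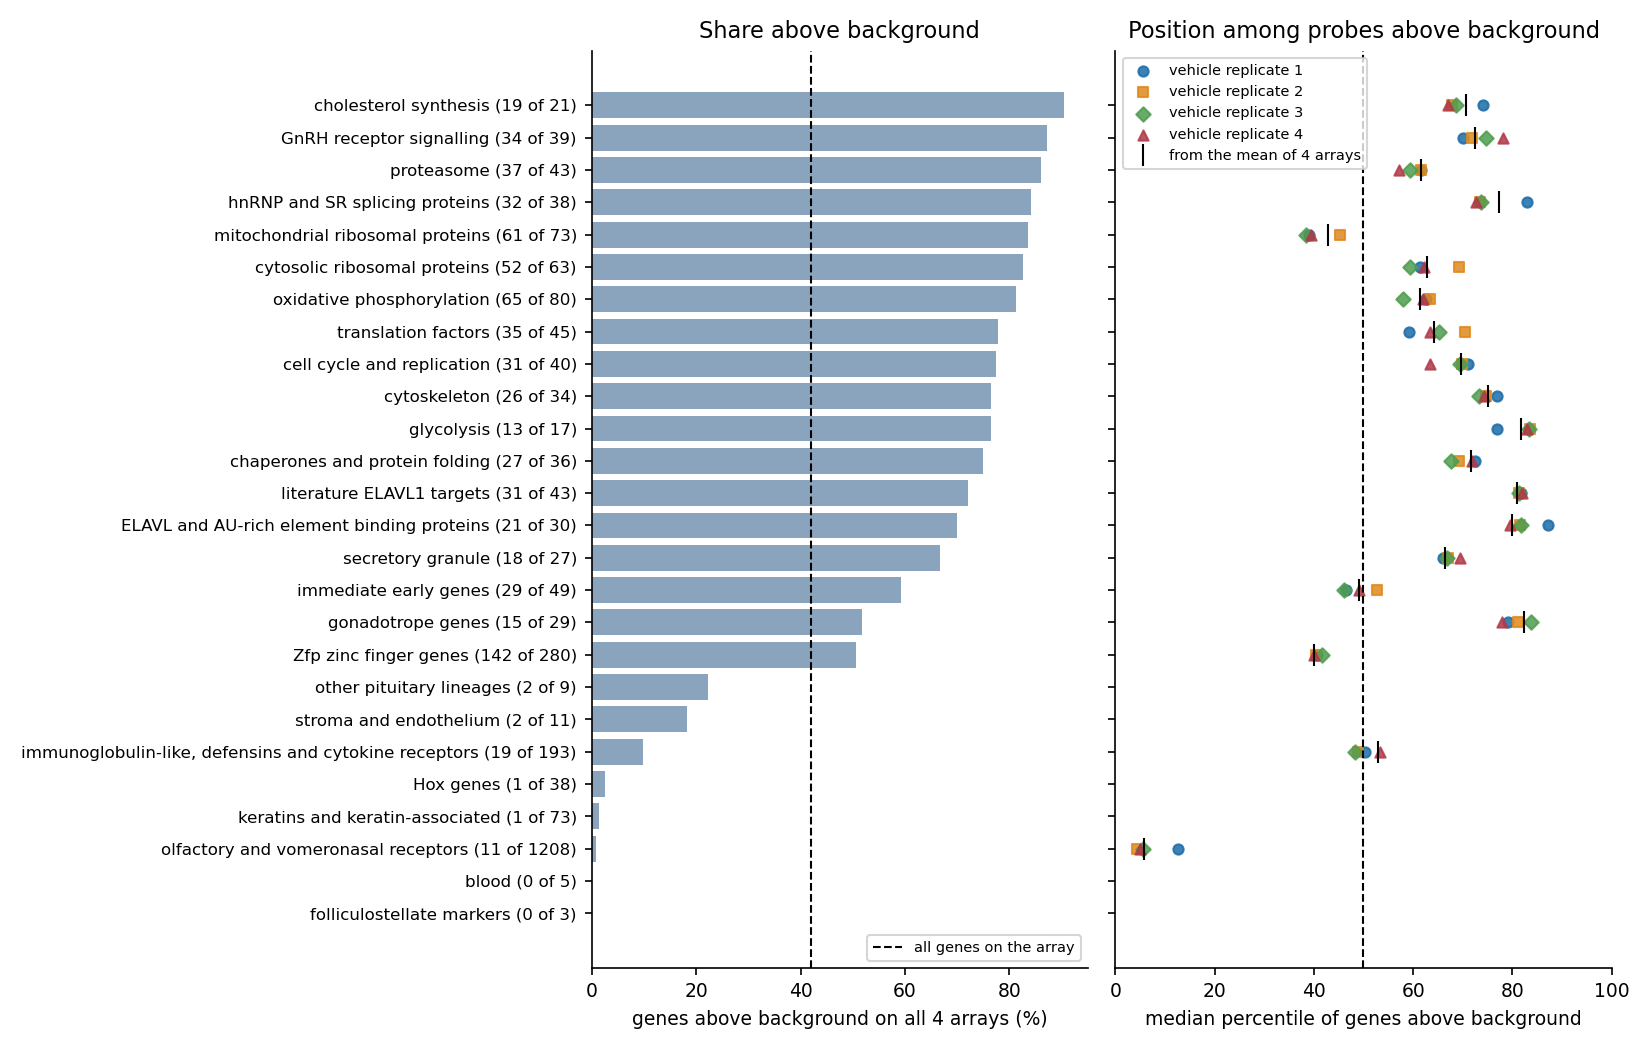
Share of each list's genes above background on all 4 vehicle arrays (left, bars, with detected and total genes in brackets) and the median percentile of the detected genes on each array (right, points, for lists with at least 3 detected genes). Dashed lines give all genes on the array, 42.1% on the left and a median percentile of 49.8 on the right.

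Several families known from other tissues were mostly undetected. Of 1208 olfactory and vomeronasal receptor genes 11 (0.911%) were detected, at a median percentile of 5.69 ± 3.90, and the brightest, Olfr724, stood at 5.93, 5.72, 5.44 and 6.02. Of 73 keratin genes 1 was detected, Krt10 (6.76 ± 0.10), and of 38 Hox genes 1, Hoxa13 (5.41, 5.26, 5.14 and 5.91). Of 193 genes in a list of immunoglobulin-like, defensin and cytokine receptor genes 19 (9.84%) were detected. The list was drawn by symbol, so it also took in genes outside these classes, such as the tetraspanin Cd81. Cd81 led it, with Cd164 (12.14 ± 0.27) and Cd47 (11.66 ± 0.36), and many cell types express these. Zinc finger genes named Zfp, unlike these, were detected more often than the array as a whole, in 142 of 280 (50.7%) beside 42.1% of all genes. The detected ones had a median percentile of 40.1 ± 0.68, beside 49.8 for all detected genes, and 20 genes in the dimmest 10%. Over all 280 genes among all probes the median percentile was 57.5, beside 49.3 for all genes. Their list had the smallest movement between arrays among those with at least 3 detected genes, from -0.04 to 0.07.

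Grouping genes by the stem of their symbol gave 211 families with at least 10 genes on the array. All 12 Ndufa genes, subunits of respiratory complex I, and all 12 Alg genes, enzymes that build N-linked glycans, were detected, as were 27 of 28 Cdc genes. The Alg genes lay low, at a median percentile of 25.9, and the Ndufa genes at 60.7. The Lsm genes, small proteins of RNA processing, had 11 of 13 detected and a high median percentile, 85.1. At the other end 18 families had no detected gene, among them the Defb defensins (41 genes), the Tas taste receptors (35), the Krtap keratin-associated proteins (30), the Prl prolactin relatives (22) and the Tlr toll-like receptors (10).

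At the middle of the order stood genes with no shared role. Nrgn, a calmodulin-binding neuronal protein (6.75, 6.89, 7.15 and 7.11), Cop1, a ubiquitin ligase (7.03, 6.86, 6.90 and 7.12), Nupr1 (6.78, 6.76, 7.12 and 7.23) and Slc25a32 (6.92, 7.20, 6.98 and 6.80) lay there on every array. Nppc, the C-type natriuretic peptide, had 6.75, 6.94, 6.72 and 7.5, and Bdh1 had 6.60, 7.46, 6.87 and 6.99. Cryl1 (6.97 ± 0.30) and Susd4 (6.98 ± 0.26) were similar. Ddhd1, with 8.26, 6.37, 6.58 and 6.70, and Lcn8, with 6.83, 6.60, 6.61 and 7.86, came to the middle only as means of unlike arrays.

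The floor lay between 4.65 and 4.69. It held probes of Mllt1, a transcription elongation factor (4.71, 4.56, 4.57 and 4.74), Usp10, a deubiquitinase (4.69, 4.62, 4.65 and 4.69), Phka2, Mep1b, Mmp9, Bbof1, Prrx1, Mmp1a, Muc1 and Cnr1. Their SDs were 0.04 to 0.13, smaller than the median SD of all members, 0.29, at a level where the added offset compresses differences. Mmp9 and Mmp1a are metalloproteinases, and Cnr1 is a cannabinoid receptor. Usp10 and Mllt1 are widely expressed. Both, and Phka2 too, also had a brighter member probe, so for them the floor describes a probe and not the gene. By the mean over a gene's probes, the lowest detected Usp gene lay at percentile 22.0.

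Different probes of the same gene often disagreed, which limits how far a probe's place can stand for its gene. Among 1528 genes with more than 1 member probe the brightest and the dimmest differed by a median of 1.13 on the log2 scale, or 18.5 percentile points. In 820 of them (53.7%) the difference exceeded 1, and in 137 it exceeded 4. Mcm4 had probes at 12.63 ± 0.10, 5.37 ± 0.23 and 5.20 ± 0.18, Rpl23 at 12.70 ± 0.58, 9.99 ± 0.30 and 5.35 ± 0.23, and Srsf2 at 13.24 ± 0.09, 12.60 ± 0.21 and 6.09 ± 0.90. The gaps were far larger than the spread between arrays. Ddx17, an RNA helicase, had 12.04 ± 0.18 and 5.11 ± 0.11, Zbtb18, a transcriptional repressor, ran from 11.71 ± 0.28 to 4.79 ± 0.05, and Tle4, a co-repressor, from 11.79 ± 0.19 to 5.02 ± 0.43. Whether such probes report different transcript forms was not tested.

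The dimmer probes of these genes also behaved unlike the brighter ones between arrays. Among the 454 genes whose probes differed by more than 2 on the log2 scale, the dimmest probe was highest on replicate 1 in 229 (50.4%), while the brightest probe was highest there in 96 (21.1%). The dimmest probes deviated by a median of 0.20 from their mean on replicate 1, and by -0.08, -0.09 and -0.09 on replicates 2 to 4. Srsf2 is an example, with its dim probe at 7.39, 6.04, 5.52 and 5.43. Of 2751 genes with 1 member probe below the members' median, 643 (23.4%) were highest on replicate 1. The pattern was seen in these arrays and has no test here.

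**Figure D3:**
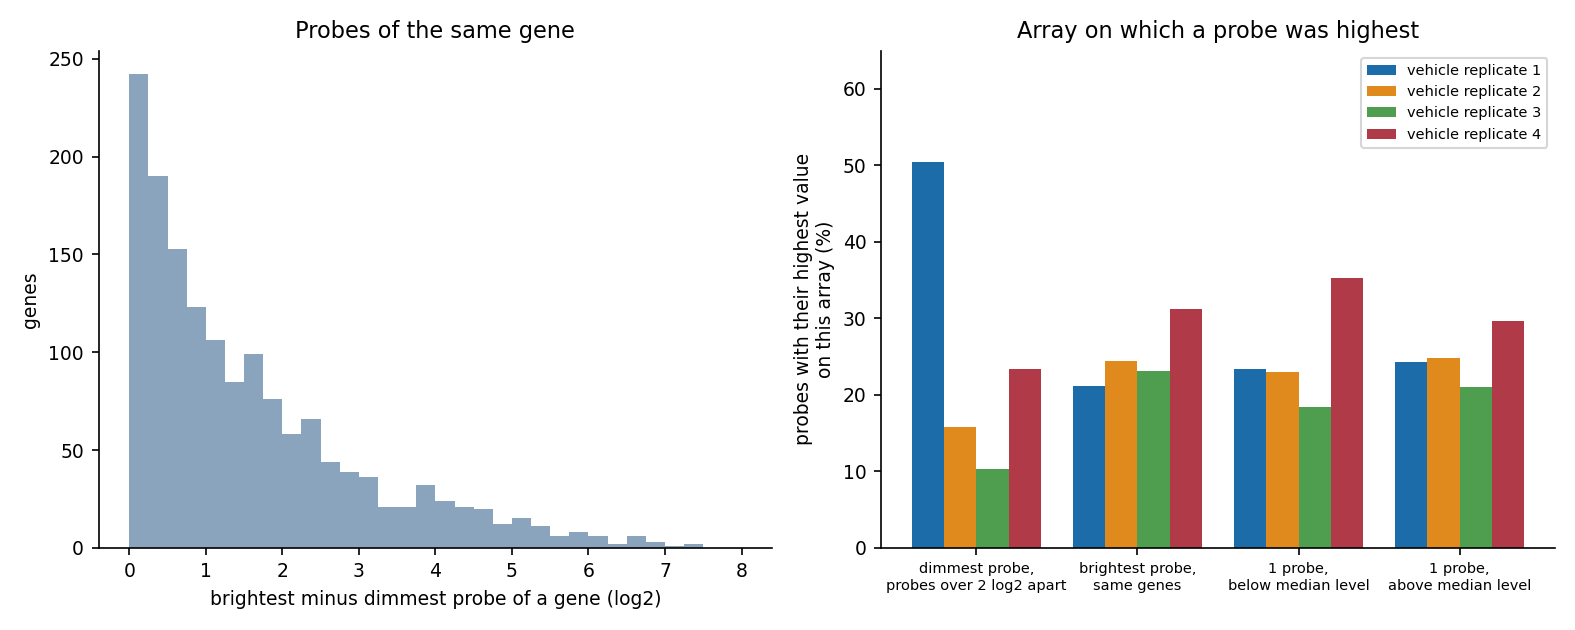
Left, number of genes by the log2 difference between their brightest and dimmest member probe (1528 genes). Right, share of probes whose highest value fell on each vehicle array, for the dimmest and brightest probes of genes with probes more than 2 apart and for genes with 1 member probe. The dimmest probes were highest on replicate 1 in 50.4% of cases and the brightest in 21.1%.

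Ranks were closely similar between arrays, and most of all between replicates 2 and 3. Spearman's rho across the 9475 probes was 0.985 for replicates 2 and 3, and between 0.921 (replicates 1 and 4) and 0.953 (replicates 3 and 4) for the other pairs. Probes on an array are not independent replicates, so these are descriptions and carry no p. The median absolute log2 difference was 0.188 between replicates 2 and 3 and 0.304 to 0.356 in the other pairs. Only 16 probes differed more than 2-fold between replicates 2 and 3, against 430 to 902 elsewhere. Replicates 2 and 3 are separate samples by their labels and were kept as such, though their origin is not stated. Counting both as 1 array, an alternative chosen after seeing the data, left 1456 probes ranging more than 2-fold between arrays, against 1867.

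The reproducibility of a probe's percentile depended on its place in the order. Among the brightest 10% the percentile of a probe ranged over the 4 arrays by a median of 2.12 points, and 99.5% of probes stayed within 10 points. Between percentiles 20 and 30 the median range was 16.4 points, and 20.04% stayed within 10. Among the dimmest 10% it was 9.34 points. The brightest 25 probes of the 4 arrays had 11 in common, the brightest 100 had 64 and the brightest 500 had 380. The dimmest 100 shared 1 and the dimmest 500 shared 71. Longer lists from the top were thus the more reproducible, membership of the brightest 25 varied between arrays, and the floor was not reproducible as a list.

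**Figure D4:**
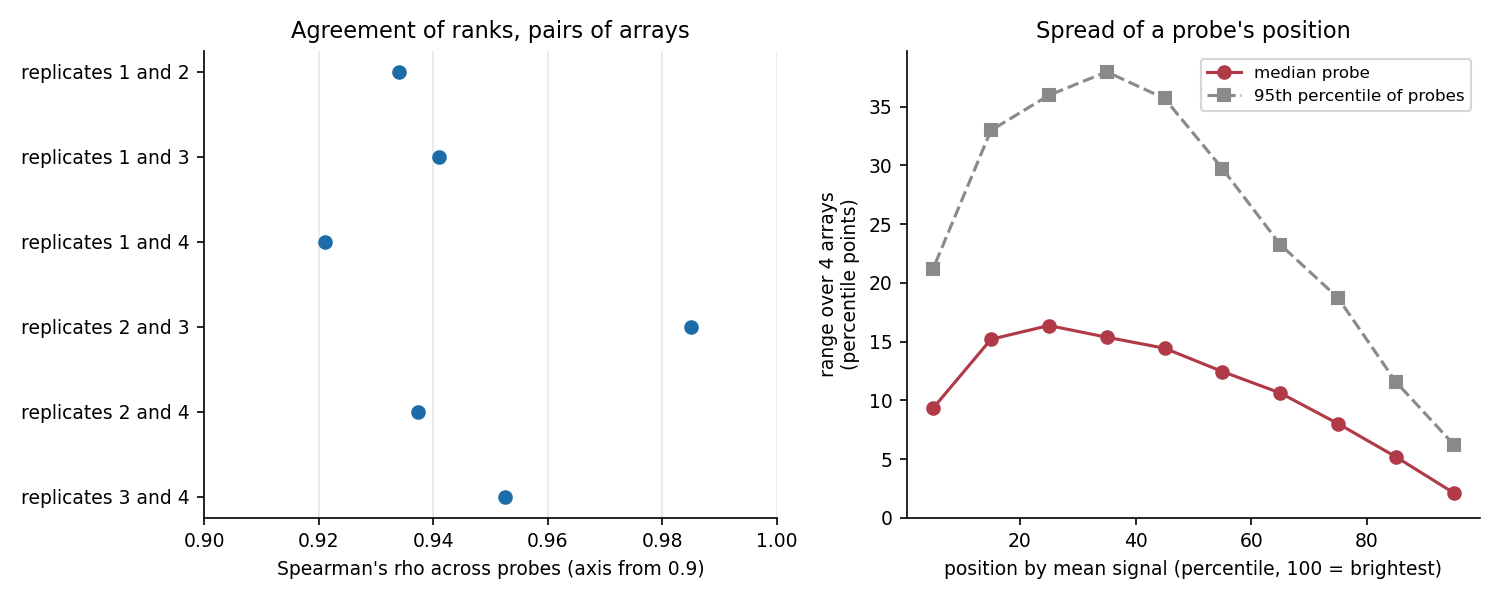
Left, Spearman's rho across 9475 probes for each pair of vehicle arrays, on an axis that starts at 0.9. Right, range of a probe's percentile over the 4 arrays in bands of 10 percentile points of mean signal, with the median probe and the 95th percentile of probes. Replicates 2 and 3 were closest (0.985), and the range was smallest in the brightest band (2.12 points).

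In absolute terms the median SD of a member over the 4 arrays was 0.29 on the log2 scale, and differences between arrays made up 3.78% of the total variance of the table. In 1867 probes (19.7%) the highest and lowest array differed more than 2-fold, and in 19 more than 8-fold. Among those 1867, replicate 1 was the highest in 742 (39.7%) and the lowest in 616, and replicate 4 was the highest in 512 and the lowest in 639 (34.2%). Replicate 3 was seldom at either end, in 158 and 207. Replicates 1 and 4 therefore carried most of the disagreement. Without replicate 1 the number of probes ranging more than 2-fold was 828, and without replicate 4 it was 1201.

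The most variable genes above the median level fell into 2 kinds. Ppp1cb, a catalytic subunit of protein phosphatase 1, had 10.24, 8.03, 7.91 and 5.79, the largest SD of all (1.82). A further probe of Btg1 (10.60, 8.84, 8.27 and 6.60), Klhl9, an adaptor of a ubiquitin ligase (9.0, 7.16, 7.18 and 5.40), and Coq10b, a mitochondrial coenzyme Q protein (9.40, 7.65, 7.19 and 5.91), followed the same order, with replicate 1 highest and replicate 4 lowest. So did a second probe of G3bp1 (8.66, 7.84, 7.61 and 5.33) and a probe of Hnrnpk (9.68, 8.65, 8.28 and 6.55). For Btg1 and G3bp1 the brightest probe did not show this, with SDs of 0.10 and 0.14.

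Calr, the chaperone calreticulin (10.29, 8.01, 7.17 and 7.99), Kdelr2, a receptor that returns proteins to the endoplasmic reticulum (10.44, 8.29, 7.72 and 7.57), and Kdsr, an enzyme of sphingolipid synthesis (9.12, 6.44, 6.43 and 6.23), were high on replicate 1 with the other arrays closer together. The second kind was high on replicate 4. It held Pdcd4, an inhibitor of translation initiation (6.93, 6.15, 6.09 and 9.51), Zbtb7a, a transcriptional repressor (7.19, 8.07, 7.92 and 10.38), and Prkaa2, a catalytic subunit of AMP-activated kinase (7.29, 6.71, 7.49 and 9.68). In all 12 genes the array farthest from the mean was replicate 1 or replicate 4.

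**Figure D5:**
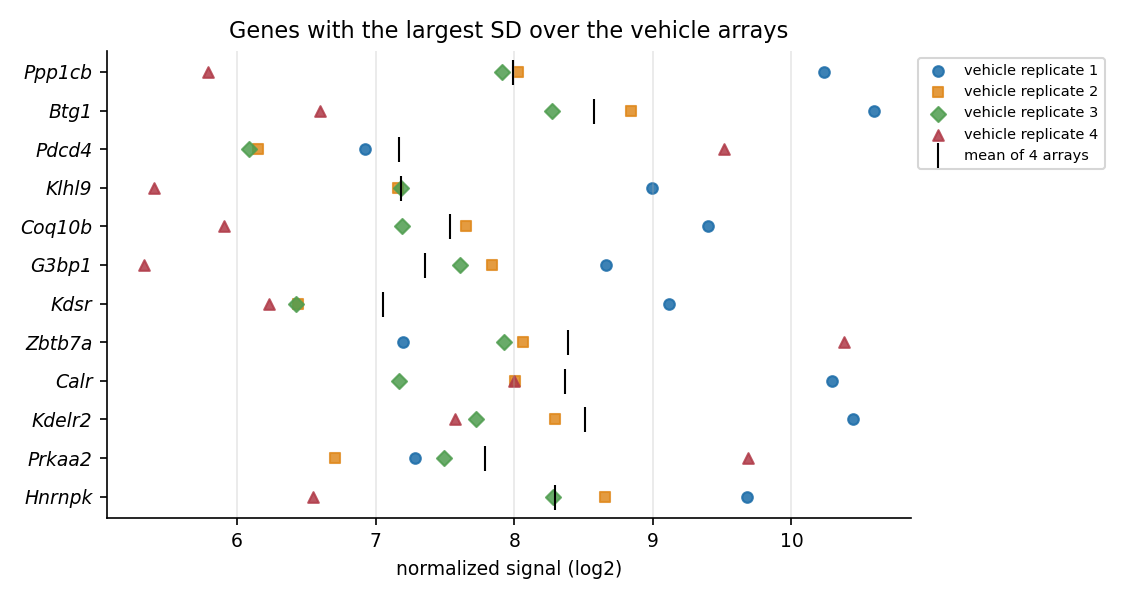
Normalized log2 signal of the 12 named genes with the largest SD over the vehicle arrays among probes above the members' median, 1 point per array and a black tick for the mean. Ppp1cb ran from 10.24 on replicate 1 to 5.79 on replicate 4, and Pdcd4, Zbtb7a and Prkaa2 were highest on replicate 4.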

How the data were processed

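LbetaT2 RNA from an ELAVL1 pull-down was measured on Illumina bead arrays, and the 4 vehicle arrays of 8 were used, grouped by sample title. Per the file headers, the authors deposited for each probe a linear average signal intensity, which its values show not to be normalized between arrays, and a detection p-value. A second deposited table holds intensity values that the authors had processed by a method not given in the sources used here, which holds for the scanner software and genome build too.

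The neqc function of limma 3.58.1 (R 4.3.3) was run on the vehicle arrays alone. It estimates background by normexp, here through the detection p-values, adds an offset of 16, makes the arrays' quantiles equal and takes log2. Quantile normalization removes differences in total yield. Summaries were made with Python 3.11.15, pandas 2.3.3 and scipy 1.17.1, and the scripts were tested on simulated data. Probe names came from the platform annotation, updated through a RefSeq table: 23978 probes had 1 symbol, 0 several and 1719 none, and 23962 matched by gene identifier. A gene's percentile is the mean over its member probes. With 1 group no test was made, and 4 arrays limit the precision.

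Members and lists were chosen with earlier results of these data known. Named genes are the 25 brightest, the 10 nearest the median, the 10 dimmest, the 12 with the largest SD above the median level, the 6 with the largest gap between probes, the 3 brightest and 3 dimmest of each list, and Elavl1, Gnrhr, Cga, Lhb, Fshb, Nr5a1, Pitx1, Egr1, Fos, Actb and Gapdh. For naming, the brightest genes and those of lists were ordered by a gene's brightest probe, and those of the floor by its dimmest. Genes named beyond these, and the families and the pattern of dimmer probes, were chosen after their values were seen. Alternatives covered the detection threshold, background correction, offset, normalization, the authors' values, the probes used and each replicate left out.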

Additional observations from a re-analysis of the deposited data

Results flagged for a closer look

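A value was singled out where 1 of the 4 arrays lay far from the others by Dixon's ratio, which happened in 7 of 96 results (7.29%), while chance gives about 5%. The highest raw signal was 8423 on replicate 4, against 13198 to 13864 on the others. Morf4l2 on replicate 4, at 13.01, lay below the other arrays (13.43 to 13.47), as did Hmgcs1 on replicate 4, at 12.46 (13.43 to 13.47), while Hmgn2 on replicate 4, at 13.26, lay above them (13.07 to 13.09). Rab11b on replicate 3, at 13.25, lay below the others (13.38 to 13.39). Kdsr on replicate 1, at 9.12, lay above the others (6.23 to 6.44). The median deviation of the Zfp zinc finger genes on replicate 3, 0.0695, lay above that on the others (-0.04 to -0.03).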

How the results depend on the processing

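No paired analysis was possible because a single group was described. The number of probes above background on all arrays was 7904 at a detection p below 0.01 and 9548 to 10050 with 1 replicate left out. Of the 25 brightest named genes 22 to 25 remained under the alternatives run. The brightest 100 probes had 69 to 74 in common among 3 arrays. The median rho between arrays, 0.939, was 0.898 over all probes on the array and 0.935 to 0.953 with 1 replicate left out. The count of probes ranging over 2-fold, 1867, depended most on the processing: it was 1227 without background correction, 925 with an offset of 50, 3733 without quantile normalization and 1197 with the authors' processed values, and 828 to 1672 with 1 replicate left out, which leaves fewer arrays to differ. The share of dimmer probes highest on replicate 1 was 56.2% without quantile normalization. The cause of these changes was not tested. The median percentile of gonadotrope genes was 79.7 at a detection p below 0.01 and 53.5 over all probes. That of literature ELAVL1 targets was 75.5 over all probes, 87.4 with the brightest probe of a gene and 74.3 with the dimmest. For hnRNP and SR proteins these were 87.4, 83.9 and 71.2, and for cytosolic ribosomal proteins 80.9 over all probes and 67.8 with the brightest probe. With 1 replicate left out the 4 lists lay at 80.99 to 83.4, 79.7 to 81.04, 75.4 to 78.9 and 62.0 to 65.6. Counting replicates 2 and 3 as 1 array, an alternative chosen after seeing the data, moved neither these 4 lists nor the median rho by more than their spread. The counts were not judged by a spread, and that of probes ranging over 2-fold fell, as given above. Signals near 5 lie close to background, where the lists of the dimmest probes were hardly shared between arrays.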
